A study of Arabidopsis thaliana with 4 samples.

Results

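In all, 10 regulators make up the group described here, and they were taken by locus with no minimum level. They are the activators of seed maturation ABI3, ABI4, ABI5, LEC1, LEC2, FUS3 and L1L, the dormancy gene DOG1, and the repressors VAL1 and VAL2. Of these 10 genes, 9 had values among the 23174 genes of the deposited tables. LEC1 (AT1G21970, chromosome 1) is missing from both tables and was not analysed here. Messenger RNA was sequenced from whole Arabidopsis thaliana seedlings at 14 days of age, in 2 libraries of atino80-5 and 2 libraries of wild type. Both genotypes grew at 22 °C on MS agar plates, with 16 h of light and 8 h of darkness a day. The atino80-5 plants carry a mutant allele of INO80, the ATPase of a chromatin remodelling complex. The labels give neither the kind of allele, nor the accession of the plants, nor how many seedlings went into a library. INO80 itself stood at 2.72 and 3.13 FPKM in atino80-5, against 4.28 and 4.54 FPKM in wild type, where FPKM is fragments per kilobase of gene, scaled to library size. This difference did not pass the test used below (limma adjusted p = 0.151), and AT3G57290 overlaps the gene.

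Seed maturation is the phase in which the embryo fills with storage protein and oil, dries and becomes dormant. LEC1 and its relative L1L are B subunits of the trimeric factor NF-Y, and LEC2, FUS3 and ABI3 are transcription factors with a B3 DNA-binding domain. The B3 domain reads the RY element, whose core letters are CATGCA, in front of storage protein genes. ABI5, a bZIP factor, binds ABA response elements, which often hold the G-box CACGTG. ABI4, an ERF-type factor, carries ABA and sugar signals in the seed, and DOG1 is a protein that sets the depth of dormancy. After germination VAL1 and VAL2, B3 proteins that also bind the RY element, repress this program together with Polycomb complexes and histone deacetylases, so a seedling normally keeps most of these activators silent.

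The promoters of 3 members and of 1 storage gene are shown because they hold, or lack, the elements through which these factors act. They are the 300 bases before the start annotated by RefSeq in TAIR10.1, read 5′ to 3′ on the strand of the gene. Capitals mark RY (CATGCA) and G-box (CACGTG) matches on either strand. ABI3 is the member with the clearest difference in reads. ABI5 and VAL1 have the most matches among the members, and SESA5 encodes a seed albumin. The deposited tables carry no coordinates, and their gene length for ABI3 was 3694 bases, so the start used by the authors may lie elsewhere.
ABI3 promoter, chr3:8997070-8997369, plus strand: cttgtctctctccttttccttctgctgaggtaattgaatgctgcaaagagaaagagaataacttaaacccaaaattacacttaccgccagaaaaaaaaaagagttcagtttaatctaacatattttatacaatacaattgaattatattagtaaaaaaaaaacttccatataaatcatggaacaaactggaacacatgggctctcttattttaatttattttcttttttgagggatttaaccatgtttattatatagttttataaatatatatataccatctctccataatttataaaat
ABI5 promoter, chr2:15207637-15207936, minus strand: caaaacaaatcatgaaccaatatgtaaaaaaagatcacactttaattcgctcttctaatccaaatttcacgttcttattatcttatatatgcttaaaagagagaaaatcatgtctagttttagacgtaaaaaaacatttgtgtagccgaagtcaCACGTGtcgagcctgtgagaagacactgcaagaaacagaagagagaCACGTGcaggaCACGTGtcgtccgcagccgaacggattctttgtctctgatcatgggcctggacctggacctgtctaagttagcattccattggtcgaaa
VAL1 promoter, chr2:12985278-12985577, minus strand: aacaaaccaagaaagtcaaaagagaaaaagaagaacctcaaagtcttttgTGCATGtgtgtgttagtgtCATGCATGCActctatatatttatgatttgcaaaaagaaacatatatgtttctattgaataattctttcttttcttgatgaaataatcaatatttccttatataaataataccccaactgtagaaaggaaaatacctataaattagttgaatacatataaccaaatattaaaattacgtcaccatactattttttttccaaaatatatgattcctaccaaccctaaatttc
SESA5 promoter, chr5:22239188-22239487, minus strand: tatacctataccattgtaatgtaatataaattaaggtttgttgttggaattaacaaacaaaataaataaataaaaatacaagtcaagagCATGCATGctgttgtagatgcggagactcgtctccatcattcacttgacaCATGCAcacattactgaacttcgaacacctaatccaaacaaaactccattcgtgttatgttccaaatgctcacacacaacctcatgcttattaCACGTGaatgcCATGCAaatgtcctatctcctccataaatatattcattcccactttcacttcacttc
The ABI3 window held neither element. The ABI5 window held 3 G-boxes, at 146, 100 and 89 bases before the start, and no RY element. The VAL1 window held 4 RY matches, of which 3 overlap each other in the run CATGCATGCA. The SESA5 window held 4 RY matches, a pair of them overlapping, and 1 G-box 68 bases before the start. Of the 10 members, LEC1 included, 2 had an RY match, VAL1 and FUS3, and 1 had a G-box. Of 27443 promoters of protein-coding genes, 10.3% held an RY match and 7.09% a G-box. No member held the telobox AAACCCTA, an element linked to Polycomb recruitment, which 5.21% of promoters held.

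ABI3, with 19 reads in atino80-5 and 0 in wild type, was the only member to pass any of the tests of the difference between the genotypes, and it did not pass the main one. The repressors VAL1 and VAL2 were expressed at like levels in both genotypes, ABI5 and DOG1 were expressed at about 1 FPKM, and LEC2, FUS3 and L1L were near 0 in all 4 libraries. Differences were tested with limma on log2(FPKM + 1) over all 23174 genes, and a gene was called at a Benjamini-Hochberg adjusted p under 0.05. By this test 0 of the 9 members were called, against 3.87% of all genes (896 genes, 1.92% higher and 1.95% lower). Before adjustment 2 members, ABI3 and ABI4, had a p under 0.05, as did 24.6% of all genes. With limma voom on whole reads recovered from the deposited values, 1 member, ABI3, was called, against 7.66% of all genes. In the authors' deposited table, 1 of the 5 members with an adjusted p was called, again ABI3, which was higher in atino80-5, against 9.50% of genes there (5.85% higher and 3.65% lower). The median log2 difference over the 9 members was 0.13, and over all genes it was -0.01.

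**Figure D1:**
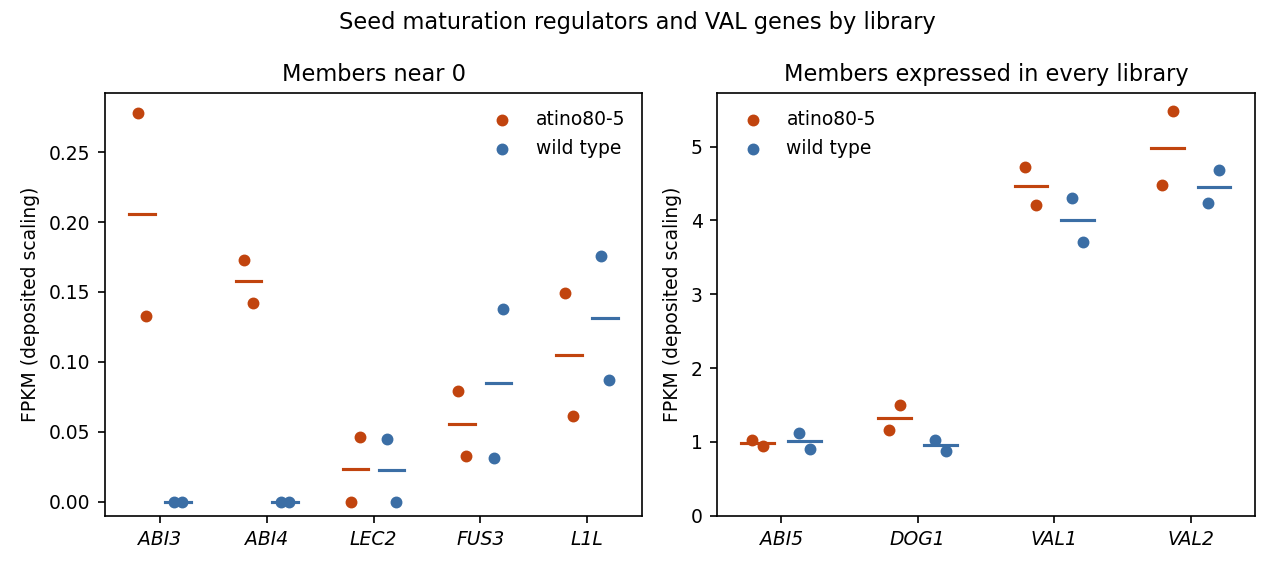
Level of each member in FPKM (vertical axes, linear and different in the 2 panels) in the 2 atino80-5 and the 2 wild-type libraries, with points for libraries and lines for group means. ABI3 and ABI4 have points above 0 in atino80-5 alone, and VAL1 and VAL2 lie between 3.71 and 5.49 FPKM in all 4 libraries.

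The B3 activators differed among themselves. ABI3 (AT3G24650, chromosome 3), which drives storage protein genes and seed dormancy, stood at 0.278 and 0.133 FPKM in atino80-5 and at 0 in both wild-type libraries. These values rest on 12 and 7 reads in the atino80-5 libraries and 0 reads in the wild-type libraries. Both mutant libraries were thus above both wild-type libraries, although the mutant pair held fewer reads in all, 27814464 against 32252755 in the wild-type pair. Taking 3 reads over the wild-type pair as the limit that a count of 0 allows, ABI3 was at least 8.84-fold higher in atino80-5. The lower limit of the exact (Clopper-Pearson) 95% interval of the ratio was 6.29, and such intervals and floors cover counting error only. The log2 difference of ABI3 on the log2(FPKM + 1) scale, which hides most of the change of a gene this low, was 0.27 (SE 0.08, limma adjusted p = 0.139). With voom on the reads it was called (adjusted p = 0.0192), and the authors' deposited table gave a log2 fold change of 6.15 (SE 1.86) with a DESeq2 adjusted p of 0.0147. The log2 difference of ABI3 was 0.18 without atino80-5 replicate 1, 0.35 without atino80-5 replicate 2 and 0.27 without either wild-type library. Among all genes, 221 lacked wild-type reads altogether, and 14 of these, ABI3 among them, had at least 19 reads in the mutant pair. In the other direction 563 genes had no read in atino80-5, and 11 of them had at least 19 wild-type reads.

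LEC2 (AT1G28300, chromosome 1), which can start embryo formation when expressed in leaves, had 0 and 2 reads in atino80-5 and 2 and 0 reads in wild type. FUS3 (AT3G26790, chromosome 3), which balances ABA against gibberellin in the embryo, had 2 and 1 reads in atino80-5 against 1 and 6 reads in wild type. Scaled for depth, the FUS3 ratio of atino80-5 over wild type was 0.577, with an exact 95% interval of 0.0963 to 2.53. The libraries overlapped for both genes, and at this depth no difference was detectable. L1L (AT5G47670, chromosome 5), the NF-Y subunit closest to LEC1, had 2 and 1 reads in atino80-5 and 3 and 2 reads in wild type, and its ratio was 0.808 with an interval of 0.126 to 4.15. L1L overlaps AT5G47660 and AT5G47680, and how reads were split between overlapping genes is not given. ABI3 was thus the 1 B3 activator with reads confined to the mutant.

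The ABA-related factors ABI4 and ABI5 stood far apart in level. ABI4 (AT2G40220, chromosome 2) had 2 reads in each atino80-5 library and 0 reads in both wild-type libraries, which is 0.173 and 0.142 FPKM against 0. The bound against 3 reads over the wild-type group was at least 1.81-fold higher, but the exact 95% interval of the ratio reached down to 0.889, so 4 reads do not separate the groups. The log2 difference of ABI4 was 0.21 (SE 0.06, limma adjusted p = 0.131), and with voom the adjusted p was 0.105. ABI5 (AT2G36270, chromosome 2), which holds back growth of the germinated embryo under ABA, stood at 1.02 and 0.939 FPKM in atino80-5, against 1.12 and 0.901 FPKM in wild type. These libraries interleaved, and the log2 difference of ABI5 was -0.02 with a 95% interval of -0.31 to 0.27 (limma adjusted p = 0.931). On the scale of reads, voom gave ABI5 an interval of -0.67 to 0.63 in log2.

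DOG1 (AT5G45830, chromosome 5) was at a level like that of ABI5, and its difference did not pass the test. It stood at 1.16 and 1.5 FPKM in atino80-5 (26 and 41 reads), against 1.02 and 0.883 FPKM in wild type (29 and 34 reads). Both mutant libraries were above both wild-type libraries, with means of 1.33 ± 0.240 FPKM in atino80-5 and 0.949 ± 0.0939 FPKM in wild type (SD, n = 2). The ratio of means was 1.40, and the log2 difference of 0.25 had a 95% interval of -0.07 to 0.58 (limma adjusted p = 0.284). In the authors' deposited table DOG1 had a log2 fold change of 0.49 (SE 0.54, adjusted p = 0.659). In all, 3 of the 9 members had both mutant libraries above both wild-type libraries and 0 had both below, where 29.4% and 30.1% of all genes did so.

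The repressors VAL1 and VAL2 were the most strongly expressed members. VAL1 (AT2G30470, chromosome 2, also named HSI2) stood at 4.72 and 4.21 FPKM in atino80-5, against 4.30 and 3.71 FPKM in wild type, from 250 to 338 reads a library. VAL2 (AT4G32010, chromosome 4, also named HSL1) stood at 4.48 and 5.49 FPKM in atino80-5, against 4.24 and 4.68 FPKM in wild type, from 305 to 548 reads a library. The libraries overlapped between the genotypes for both genes. The log2 difference was 0.13 for VAL1 (95% interval -0.27 to 0.52, limma adjusted p = 0.638) and 0.13 for VAL2 (95% interval -0.29 to 0.54, limma adjusted p = 0.654). Both differences were -0.05 when libraries were scaled to total reads, which moved the median of all genes to -0.126. On the scale of reads, where a 2-fold change is 1 in log2, the voom intervals ran from -0.25 to 0.57 for VAL1 and from -0.25 to 0.56 for VAL2. An annotated noncoding RNA gene, AT4G08635, overlaps VAL2.

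**Figure D2:**
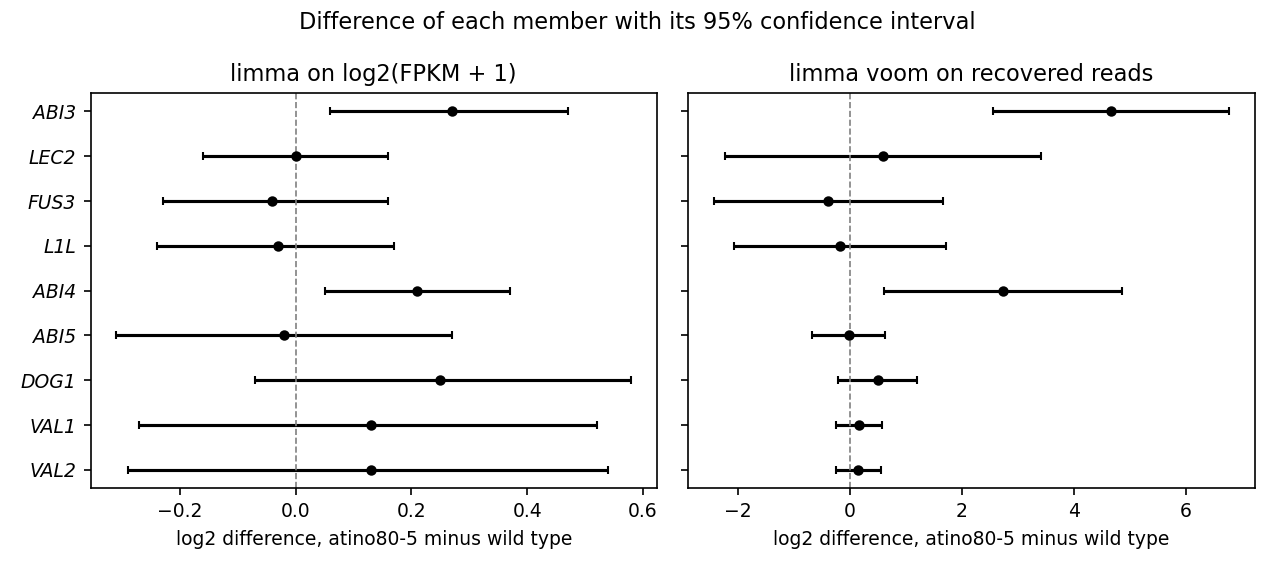
Log2 difference of each member, atino80-5 minus wild type, with its 95% confidence interval (horizontal axes, different in the 2 panels), from limma on log2(FPKM + 1) at the left and from voom on recovered reads at the right. The intervals of ABI3 and ABI4 lie above 0 in both panels before adjustment over all genes, and those of the other 7 members span 0.

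Between genes, levels were compared per kilobase of exon, because the lengths behind the deposited FPKM include introns and understate intron-rich genes. By RefSeq exons VAL2 came first, with 7.72 ± 1.11 in atino80-5 and 6.92 ± 0.484 in wild type (SD, n = 2), in fragments per kilobase of exon, scaled to library size as FPKM is. VAL1 followed with 5.95 ± 0.481 in atino80-5 and 5.34 ± 0.550 in wild type, and lay below VAL2 within each of the 4 libraries. By the deposited FPKM, VAL1 was above VAL2 in replicate 1 of both genotypes, so the order of these neighbours depends on the length used. DOG1 had 1.47 ± 0.265 in atino80-5 and 1.05 ± 0.104 in wild type on this scale. ABI5 had 1.29 ± 0.0766 in atino80-5 and 1.32 ± 0.201 in wild type, so that in wild type ABI5 lay above DOG1 in both libraries. In atino80-5 these neighbours could not be ordered beyond their spread. ABI3 reached 0.244 ± 0.122 per exon kilobase in atino80-5, below ABI5 in both mutant libraries. The lowest members, L1L, FUS3, LEC2 and ABI4, had 0.116 or less in either genotype and could not be ordered at these read numbers.

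Genes that the activators are known to switch on in seeds were higher in atino80-5. Of 15 targets with values (storage proteins, oil-body oleosins and late-stage proteins), 12 were called higher by limma, 0 lower and 3 were not called, against 1.92% of all genes called higher. CRA1, a cruciferin storage protein gene, stood at 21.2 and 28.7 FPKM in atino80-5, against 0.334 and 0.446 FPKM in wild type, a ratio of means of 64.0 (log2 difference 4.21, SE 0.19, limma adjusted p = 0.00805). SESA5 stood at 14.8 and 12.6 FPKM in atino80-5 and had no read in wild type, so it was at least 133-fold higher. CRC, another cruciferin gene, stood at 6.87 and 13.8 FPKM in atino80-5, against 0.0600 and 0 FPKM in wild type. OLEO2, an oleosin gene that overlaps AT5G40410, stood at 7.81 and 3.38 FPKM in atino80-5, against 0.0966 and 0.179 FPKM in wild type. Both mutant libraries were above both wild-type libraries for all 15 targets, where 29.4% of all genes did so. The 3 targets not called by limma were CRU2, SESA4 and RAB18, an ABA-induced dehydrin gene at 75.7 ± 11.0 FPKM in atino80-5 and 42.3 ± 2.14 FPKM in wild type (SD, n = 2). With voom RAB18 (adjusted p = 0.0225) and CRU2 (0.0261) were called higher, and SESA4 was not (0.0876). In the authors' deposited table RAB18 was called (DESeq2 adjusted p = 0.00465), and CRU2 and SESA4 had no adjusted p. The SESA1 to SESA4 genes lie side by side and are alike in sequence, so their reads may be shared. EM1 and EM6, late embryo genes that ABI5 is known to activate, rose to 1.78 ± 0.505 and 1.94 ± 0.504 FPKM in atino80-5, against 0.255 ± 0.166 and 0.213 ± 0.102 FPKM in wild type, while ABI5 did not pass the test. CRU2, SESA3, SESA4, OLEO4, RAB18, EM1 and EM6 were named after their values were seen. The unfiltered fits without atino80-5 replicate 1 or either wild-type library, which leave 1 library in a genotype, called no gene at all. They therefore cannot show whether the calls of the targets hold. Without atino80-5 replicate 1, wild type replicate 1 and wild type replicate 2, the log2 difference of CRA1 was 4.42, 4.15 and 4.27. That of OLEO2 was 1.95, 2.40 and 2.50.

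The 15 promoters of the targets held 32 RY matches, in 10 of them, and a G-box in 8. Of all protein-coding promoters 10.3% held an RY match and 7.09% a G-box. The related genes SESA1 to SESA5 held 2, 3, 7, 6 and 4 of these RY matches. Matches can overlap, as those of SESA3 at 87, 85, 83, 81 and 79 bases before the start do, so they are not all separate sites. In whole seedlings, more cells of a seed-like kind and more RNA per cell cannot be told apart. The 12 mature seed markers, all of them also on the target list, summed to between 62.2 and 71.9 FPKM in the atino80-5 libraries and between 1.08 and 1.56 FPKM in wild type. Of these 12 markers, 0 were without a read in atino80-5 and 6 were without a read in wild type. The part that ungerminated seeds or seed-coat remains might play was not tested. The leaf markers summed to between 68900 and 79300 FPKM in atino80-5 and between 56500 and 66700 FPKM in wild type, and the root markers to between 550 and 672 FPKM in atino80-5 and between 400 and 446 FPKM in wild type. Among the leaf markers LHCB1.3, LHCB1.5 and RCA had higher means in atino80-5 than in wild type, and RBCS1A and RBCS3B had lower means. CA1 had 852 ± 156 FPKM in atino80-5 and 844 ± 131 FPKM in wild type (SD, n = 2). The root sum is mostly PYK10, at 551 ± 71.6 FPKM in atino80-5 and 348 ± 34.3 FPKM in wild type (SD, n = 2). Of the other 5 root markers, BGLU22, PRP3, CASP1 and NRT2.1 had lower means in atino80-5 than in wild type, and EXPA7 had 6.46 ± 0.155 FPKM in atino80-5 and 6.42 ± 0.265 FPKM in wild type. None of these 12 leaf and root markers was called by limma. The 4 floral organ markers summed to between 1.31 and 1.43 FPKM in atino80-5 and between 0.493 and 0.701 FPKM in wild type, with 1 called higher. That gene was PI, which made up most of the sum at 1.19 ± 0.12 FPKM in atino80-5 and 0.385 ± 0.0318 FPKM in wild type. Of the others, AP1 and AP3 had lower means in atino80-5 and AG had a higher mean. AG had 8 and 4 reads in atino80-5 and 2 and 2 reads in wild type, and was not called.

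**Figure D3:**
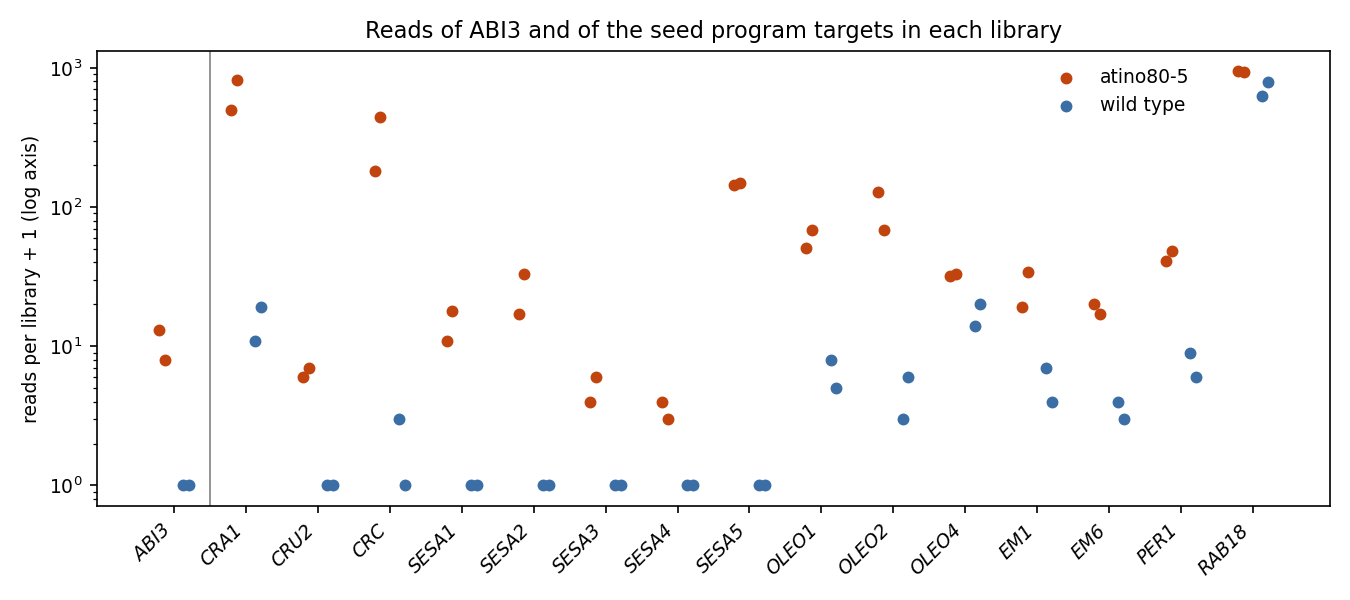
Reads per library plus 1 (vertical log axis) of ABI3, left of the line, and of the 15 seed program targets, in the 2 atino80-5 and the 2 wild-type libraries. ABI3 and 6 of the targets have no read in wild type, and for all 15 targets both atino80-5 points lie above both wild-type points. By FPKM, both atino80-5 libraries were above both wild-type libraries for 29.4% of all genes.

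Among genes that hold the seed program off, RING1B alone was called. Of 19 repressors with values, among them the third VAL gene, Polycomb subunits, the remodeller PKL and histone deacetylases, 1 was called lower and 0 higher, against 1.95% and 1.92% of all genes. The median log2 difference was 0.00, and 4 of the 19 had an unadjusted p under 0.05, near the 24.6% of all genes. RING1B, a RING-finger subunit of the Polycomb complex PRC1, stood at 0.176 and 0.337 FPKM in atino80-5, against 1.04 and 1.13 FPKM in wild type. It was 4.22-fold lower in the mutant (log2 difference -0.73, SE 0.11, limma adjusted p = 0.0318), and RING1A, its close relative, stood at 2.37 ± 0.0517 FPKM in atino80-5 and 2.26 ± 0.285 FPKM in wild type (SD, n = 2). RING1B lost its call with a pseudocount of 0.1 FPKM (limma adjusted p = 0.0519) and without the intensity trend (0.0669), and TPX2 (AT1G03780) overlaps it. Without atino80-5 replicate 1, wild type replicate 1 and wild type replicate 2, its log2 difference was -0.64, -0.76 and -0.70. Those fits called no gene at all, so they cannot show whether the call of RING1B holds. PKL, which represses LEC genes during germination, stood at 2.64 ± 0.482 FPKM in atino80-5 and 4.17 ± 0.357 FPKM in wild type. It was not called (log2 difference -0.51, limma adjusted p = 0.155). PKL, VRN2 and SAP18 were called in no setting that kept all libraries. Without atino80-5 replicate 2, which left 1 mutant library, their log2 differences were -0.65, -0.63 and 0.79. SAP18 stood at 36.1 and 21.4 FPKM in atino80-5, against 21.6 and 19.3 FPKM in wild type, so its libraries overlapped. VAL3 (AT4G21550) stood at 0.722 ± 0.153 FPKM in atino80-5 and 0.550 ± 0.00657 FPKM in wild type (limma adjusted p = 0.41). PKL, VRN2, SAP18, RING1A and VAL3 were named after their values were seen.

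Among 15 kinases and controllers of the ABA branch, 1 was called higher and 0 lower, against 1.92% and 1.95% of all genes. An unadjusted limma p under 0.05 was found for 5 of them, and for 24.6% of all genes. Of these, SOM, AFP3, AFP4 and RGL2 had higher means in atino80-5, and ABF1 had a lower mean. ABF1 stood at 6.65 and 9.87 FPKM in atino80-5, against 14.4 and 13.4 FPKM in wild type (log2 difference -0.71, limma adjusted p = 0.129). ABF1, AFP3 and RGL2 were named after their values were seen. SOM, a zinc-finger gene that delays germination in the dark and is known as a target of ABI3 in imbibed seeds, stood at 1.58 and 1.29 FPKM in atino80-5, against 0.256 and 0.253 FPKM in wild type. It was 5.63-fold higher (log2 difference 0.95, SE 0.11, limma adjusted p = 0.0178), and in the authors' deposited table its log2 fold change was 2.49 (adjusted p = 0.0106). Without atino80-5 replicate 1, wild type replicate 1 and wild type replicate 2, its log2 difference was 0.87, 0.96 and 0.95. Those fits called no gene at all, so they cannot show whether the call of SOM holds. AFP4 (TMAC2), which binds ABI5, stood at 6.43 ± 0.320 FPKM in atino80-5 and 3.59 ± 0.290 FPKM in wild type (SD, n = 2) without passing the test (limma adjusted p = 0.0757), and was named after its values were seen. With a minimum mean of 1 FPKM, which removes SOM, AFP4 was called (limma adjusted p = 0.0485).

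Around DOG1, 4 of 6 listed genes had values and none was called by limma, while 2 had an unadjusted p under 0.05 (24.6% of all genes did) and none was called by voom. AHG3, a phosphatase of ABA signalling that DOG1 binds, stood at 35.4 and 23.7 FPKM in atino80-5, against 18.0 and 19.7 FPKM in wild type (limma adjusted p = 0.181). With 1 mutant library left, its log2 difference was 0.31 without atino80-5 replicate 1 and 0.88 without replicate 2. AT4G18650 stood at 0.582 and 0.143 FPKM in atino80-5, against 0.0457 and 0.102 FPKM in wild type (limma adjusted p = 0.27). Its log2 difference was 0.09 without atino80-5 replicate 1 and 0.56 without replicate 2. AT4G18690, annotated by RefSeq as a delay of germination protein and named after its values were seen, had 3 and 4 reads in atino80-5 and 0 in wild type. Its bound was at least 3.13-fold higher, with a limma adjusted p of 0.061. AT4G18690 was called with a pseudocount of 0.1 FPKM (limma adjusted p = 0.0437) and under quantile normalization (0.0453).

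The partners of the activators gave 0 calls in limma as fitted above, in voom and in the authors' deposited table. Of 9 partner bZIP factors and other embryo regulators with values, 1 had an unadjusted limma p under 0.05, as did 24.6% of all genes. It was BZIP10, at 9.02 ± 0.988 FPKM in atino80-5 and 13.5 ± 0.786 FPKM in wild type (SD, n = 2, limma adjusted p = 0.12). BZIP10 was called in no setting that kept all libraries. Without atino80-5 replicate 2, which left 1 mutant library, its log2 difference was -0.64. BZIP25 stood at 30.2 ± 1.14 FPKM in atino80-5 and 31.1 ± 0.700 FPKM in wild type (limma adjusted p = 0.868). Of 8 other NF-Y subunits with values, 4 had an unadjusted limma p under 0.05 (24.6% of all genes did), NF-YB2 and NF-YB3 with higher and NF-YB5 and NF-YC2 with lower means in atino80-5. NF-YB3 stood at 48.3 and 48.4 FPKM in atino80-5, against 33.2 and 28.3 FPKM in wild type (limma adjusted p = 0.0885), and NF-YB2 at 48.5 and 54.9 FPKM in atino80-5, against 39.0 and 39.8 FPKM in wild type (limma adjusted p = 0.192). NF-YB3 and NF-YC2 were called in no setting that kept all libraries. With 1 mutant library left, the log2 difference of NF-YB3 was 0.64 without atino80-5 replicate 1 or 2. That of NF-YC2 was -0.62 without replicate 2. NF-YB5 stood at 0.179 ± 0.0251 FPKM in atino80-5 and 0.606 ± 0.127 FPKM in wild type (SD, n = 2, limma adjusted p = 0.0694). It was called when libraries were scaled to total reads (limma adjusted p = 0.0419) and with the replicate block (0.0469). NF-YB5 and NF-YC2 were named after their values were seen.

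**Figure D4:**
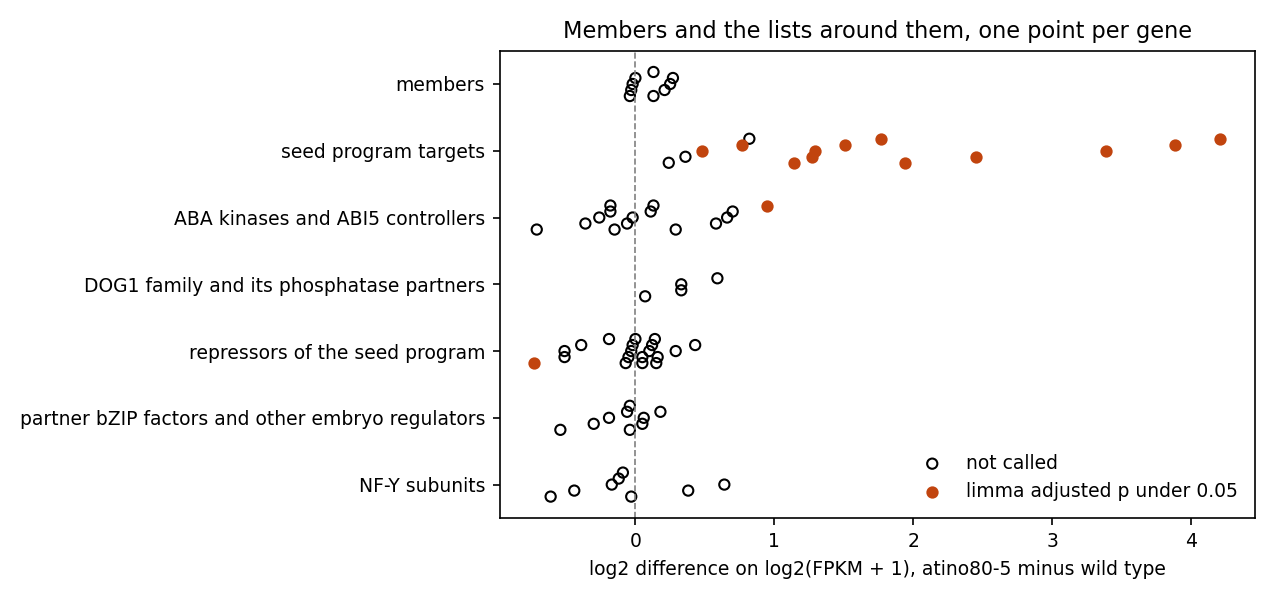
Log2 difference on log2(FPKM + 1), atino80-5 minus wild type (horizontal axis), of the 9 members and of each gene with values in the 6 lists, with filled points for genes called by limma. Of the filled points 12 are seed program targets, 1 is SOM and 1, at the left, is RING1B.

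The Pearson correlation of log2 values over genes was 0.9822 for the atino80-5 pair, 0.9927 for the wild-type pair, and between genotypes 0.9570 to 0.9789, the lowest values being those of atino80-5 replicate 1. Genes are not independent replicates in these values. The libraries held 13068214 and 14746250 reads in atino80-5 and 13846046 and 18406709 reads in wild type. The labels do not say whether replicates are separate cultures. The p-values therefore rest on the spread of 2 libraries a genotype, which may be technical, and an exact permutation of 2 against 2 cannot give a two-sided p under 0.33.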

How the data were processed

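RNA from whole seedlings was enriched for polyA and made into stranded libraries with dUTP, per the labels' protocols. In their processing notes the submitters list, without roles or versions, HISAT2, featureCounts, DESeq2, cutadapt, SAMtools, FastQC, deepTools and the build TAIR10. The annotation release is not given in the sources used here, nor is the strand setting of the counting. FPKM values were deposited by the authors, who also deposited a table with a mean normalised signal, log2 fold changes, DESeq2 test scores, p-values and adjusted p-values. From the values, FPKM is scaled by size factors (0.7849, 0.9574, 0.9995 and 1.3479 for atino80-5 and wild type replicates 1 and 2), and whole reads were recovered for 100% of 92696 values within 0.01. The smallest total of a listed gene was 2 reads. Replicates differed by more than sampling noise (chi-square per degree of freedom 34.4 in atino80-5 and 11.4 in wild type).

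Values of log2(FPKM + 1) were tested two-sided in limma 3.58.1 (R 4.3.3), with the variance allowed to follow intensity, genotype as the only term and no filter on low values, since the members are taken at any level. This scale understates the change of low genes, and 3 of the 9 members, DOG1, VAL1 and VAL2, reach a mean of 1 FPKM. Limma voom on the recovered reads, other filters, pseudocounts and scalings, a block for the replicate number, and fits that leave out 1 library were tried. The code was tested on simulated reads. Exact intervals came from scipy 1.17.1. Genes named are the 10 members, INO80, and from each list up to 4 called genes by size of difference or, with none called, the 2 of highest level. Others are marked in the text. The members and lists were chosen with earlier results of these data known. The reference annotation (TAIR10.1) served for names, exon lengths, overlaps and promoters, and all 9 members matched it by locus.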

Additional observations from a re-analysis of the deposited data

How the results depend on the processing

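Of all genes, 896 were called. The number was 572 with a minimum of 5 FPKM, 587 without the intensity trend, 1776 with voom on recovered reads and 1526 with the replicate number as a block, and it stayed within 1.5 times of 896 under the other settings that kept all libraries. Scaling to total reads split the calls into 413 higher and 898 lower, against 445 higher and 451 lower as deposited. The cause of these shifts was not tested. With 1 library left out the number ran from 0 to 6896: with no filter it was 0 in limma without atino80-5 replicate 1 or either wild-type library (5060, 2188 and 2496 genes at an unadjusted p under 0.05) and 2959 without atino80-5 replicate 2. In those fits 221 or 563 genes have no read in the pair that gives the spread. With a minimum mean of 1 FPKM, a setting chosen after seeing the data, it was 1561 and 6896 without atino80-5 replicate 1 and 2, and 443 and 587 without wild type replicate 1 and 2.

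Of the members, 0 were called in all of these settings except voom, which called 1, ABI3 (log2 difference 4.66, voom adjusted p = 0.0192), and the range with 1 library left out was 0 to 0. The replicate block called 0 members, and a minimum of 5 FPKM left no member to test. Same-numbered libraries deviated from their group means with a correlation of -0.034, so the numbers were not taken as pairs. ABI3, ABI4 and DOG1 kept a positive difference in all alternatives. Their mutant libraries were both above both wild-type libraries, so leaving out a library or changing the pseudocount could not reverse this sign. ABI5, LEC2 and L1L kept their sign in 8 of 11, FUS3 in 10 of 11, and VAL1 and VAL2 in 15 of 16.

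Of 15 seed targets, 12 were called higher. It was 14 with voom, 8 without the intensity trend and 10 with a pseudocount of 5 FPKM. The unfiltered fits without atino80-5 replicate 1 or either wild-type library called no gene at all, so they cannot show whether these calls hold. With a minimum of 1 FPKM 10 of 11 were called, and 8 to 11 of 11 with 1 library left out. The log2 difference was positive for all 15 in every setting without a filter. Both mutant libraries were above both wild-type libraries for all 15, so leaving out a library or changing the pseudocount could not reverse this sign. Members under 10 reads in each library (ABI4, LEC2, FUS3 and L1L) are limited by depth.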
